A study of Mus musculus with 12 samples.

Results

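Cholesterol synthesis in the fetal liver was described here through 7 genes, namely Hmgcs1, Idi1, Sqle, Lss and Cyp51, which encode enzymes of the route, and Srebf2 and Insig1, which encode its regulators. They were chosen by gene symbol, and all 7 were found among the 30743 rows of the deposited table. Whole livers of male fetuses were collected at 15 ± 0.5 dpc (days post coitum), 6 from control dams and 6 from HFD (high-fat diet) dams of the C57BL/6 strain, and sequenced as polyA-selected RNA. The control dams ate a diet with 13.5 kcal% fat and the HFD dams a diet with 60 kcal% fat, each for 12 to 14 weeks. The paper presents the HFD livers under both the diet and maternal obesity, but gives no body mass for these dams. Diet and obesity of the dam cannot be told apart here. Livers of both groups hold hepatocytes, blood-forming cells and other cells together, so a level is a property of the mixture, in which fewer cells of a type and less RNA per cell cannot be told apart. The value used for every gene is the authors' average log2 CPM (read counts scaled to a common library size) over all 12 livers of both diets. It is 1 value per gene with no SD. HFD and control livers were therefore not compared here, and levels of single livers were not analysed here.

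Cells make cholesterol from acetyl-CoA by way of mevalonate, the isoprenoid units and squalene, and then convert lanosterol into cholesterol. The route is governed by SREBP2, a transcription factor held in the endoplasmic reticulum by SCAP and the INSIG proteins when sterols are plentiful, and released and cleaved when they are scarce. SREBP2 then raises the enzymes of the route together with genes of cholesterol uptake and INSIG1 itself, which closes a feedback loop. A fetus depends in large part on cholesterol that it makes, and the liver is one of the main organs of this synthesis.

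SREBP2 is known to act through sterol regulatory elements close to gene starts, often beside CCAAT boxes, which bind NF-Y, and GC boxes, which bind Sp1. The promoter windows given by RefSeq on GRCm38.p6 (250 bases before a start and 50 after it) were matched for 6 of the 7 genes by symbol, and Sqle had no entry. Both strands were searched for the letters TCACNCCAC, a form of the sterol element, for a stricter form of it with no free base and a preceding A, for the palindrome TCACGTGA, and for CCAAT and GGGCGG. Hmgcs1 alone among the 6 held TCACNCCAC, at positions -137 to -129 (the start base is 1 and the base before it -1), and 1.24% of all 32851 promoter windows held it. The stricter form, whose matches are also matches to TCACNCCAC, and TCACGTGA were in none of the 6 windows, and were in 0.0913% and 0.974% of all windows. CCAAT was in all 6 windows, against 37.4% of all windows, and GGGCGG was also in all 6, against 35.7%. These are matches of letters in a short window and not measured binding. Other forms of the sterol element were not searched, so a window without a match may still hold one.

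The parts of 3 windows that lie before every annotated start of the gene are shown. Hmgcs1 was taken because it held TCACNCCAC, and Cyp51 and Lss because they had the highest and the lowest level of the 7 genes. Capitals mark the matches to any of the searched motifs on either strand (ATTGG is CCAAT and CCGCCC is GGGCGG on the other strand). They are read 5′ to 3′ in the direction of the gene, from chr13:119690101-119690350 (plus strand, Hmgcs1), chr5:4104747-4104947 (minus strand, Cyp51) and chr10:76531355-76531564 (plus strand, Lss).
Hmgcs1: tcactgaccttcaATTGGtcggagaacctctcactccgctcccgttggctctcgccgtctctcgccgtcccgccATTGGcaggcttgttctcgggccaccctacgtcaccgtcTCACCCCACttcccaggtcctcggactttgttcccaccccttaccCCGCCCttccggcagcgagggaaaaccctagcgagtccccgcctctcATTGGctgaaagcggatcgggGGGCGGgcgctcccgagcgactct
Cyp51: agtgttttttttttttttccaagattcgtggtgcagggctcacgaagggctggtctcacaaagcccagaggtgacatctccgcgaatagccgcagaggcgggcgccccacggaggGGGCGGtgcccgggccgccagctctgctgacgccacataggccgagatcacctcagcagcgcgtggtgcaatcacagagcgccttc
Lss: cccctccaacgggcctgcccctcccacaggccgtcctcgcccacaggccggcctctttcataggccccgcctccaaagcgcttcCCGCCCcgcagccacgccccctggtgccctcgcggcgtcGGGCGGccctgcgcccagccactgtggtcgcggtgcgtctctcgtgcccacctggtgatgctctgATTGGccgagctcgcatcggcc
The 250 bases of Hmgcs1 held CCAAT 3 times, from positions -237, -176 and -45, all on the other strand. The match to TCACNCCAC lay between the second and the third of these. The match of Cyp51 to CCAAT lay at positions -29 to -25 from the RefSeq start, inside the transcript that GENCODE annotates, and is not shown. The match of Lss to CCAAT lay at positions -62 to -58 from the start used by the window.

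The levels in the table differed with the number of mRNAs annotated for a gene. On the scale of CPM not divided by length, of the 18363 protein-coding genes matched to RefSeq by symbol, 29% of the 11286 genes with 1 annotated mRNA were above 16 CPM, against 12.9% of the 7077 genes with 2 or more. The upper quartile of the average log2 CPM was 4.69 with 1 mRNA, 2.22 with 2, 1.63 with 3 and 1.33 with 4 or more. The medians were -0.288, -0.720, -1.06 and -0.925 in the same order. At the low end the direction was the opposite, with a lower quartile of -2.66 with 1 mRNA and -2.55 with 2 or more. Of the genes with 1 mRNA, 24.4% had no reads, against 18.5% of those with 2 or more. Gapdh, a glycolytic enzyme gene that most cells express strongly, has 2 RefSeq mRNAs and had 5.20 CPM, while Actb, with 1 RefSeq mRNA, had 2581 CPM. Hnf4a, a defining hepatocyte factor with 3 RefSeq mRNAs, and Pecam1, an endothelial marker with 4, were at -2.71, the lowest average log2 CPM of the table, where 11091 rows without reads sat. By contrast, Dhcr7 with 7 RefSeq mRNAs had 220 CPM and Rnf145 with 3 had 285 CPM. The tool that counted reads per gene and its handling of overlapping transcripts are not given in the sources used here, and the part of the transcript number in any single level was not tested. RefSeq lists 1 mRNA for Cyp51, Insig1, Idi1, Srebf2, Sqle and Lss and 2 for Hmgcs1. GENCODE M21 lists 1 coding transcript for Cyp51 and Insig1, 2 for Sqle and Lss, 3 for Hmgcs1 and 4 for Idi1 and Srebf2. Counting all transcripts, it lists 2 for Insig1, 4 for Cyp51, Sqle and Hmgcs1, 5 for Idi1, 7 for Srebf2 and 8 for Lss. Both annotations are later than the one the authors can have used. With the counting of reads unknown, a low value below is the value that the table gives and cannot be read as low expression in the liver. This caution covers genes with 1 RefSeq mRNA too. Among the 8527 such genes with reads, Lss was above 31.9%.

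**Figure D1:**
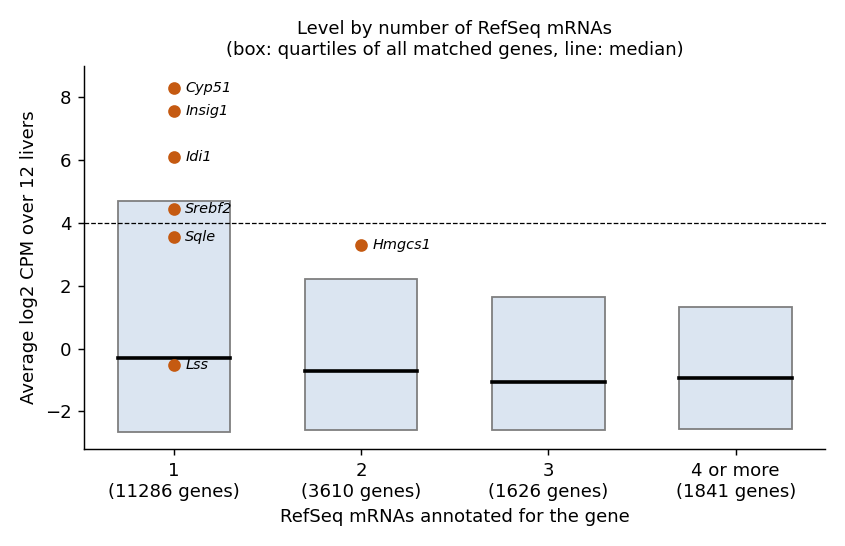
Average log2 CPM over 12 livers (vertical axis) of the matched protein-coding genes, by the number of RefSeq mRNAs of the gene (horizontal axis). Boxes span the quartiles, black lines are medians, points are the 7 genes and the dashed line is 16 CPM. The upper quartile is 4.69 for genes with 1 mRNA and 1.33 for genes with 4 or more, and the lower quartile is -2.66 and -2.54.

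The tissue label was checked against marker genes. Of 7 hepatocyte markers, 5 were above 16 CPM, among them Alb at 15.95 and Afp at 15.73 average log2 CPM. Serpina1a (-2.44), with 2 RefSeq mRNAs, and Hnf4a, with 3, were at or near the lowest value. Of 7 erythroid markers, 5 were in the table and 4 of these were above 16 CPM, with Hbb-b1 at 14.60. Alas2, the erythroid enzyme of heme synthesis, which has 2 RefSeq mRNAs, had -0.51. None of 3 macrophage markers was above 1 CPM. Cd68 (0.209 CPM) and Csf1r (0.684 CPM) have 1 RefSeq mRNA each, and Adgre1, at the lowest value, has 3. By contrast, 3 of 4 endothelial and 3 of 4 stellate or mesenchymal markers were above 1 CPM. Kdr, an endothelial marker with 2 RefSeq mRNAs, had 71.0 CPM, and Pecam1, with 4, was at the lowest value. Of 5 markers of other organs, 3 were above 1 CPM and none above 16 CPM, and Cela1, a pancreatic enzyme gene, was the highest with 3.78.

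In the order of the route, Hmgcs1 comes earliest among the 7 genes. It encodes the cytosolic HMG-CoA synthase, an early step on the way to mevalonate. It lies on chromosome 13 of GRCm38 from 119690379 to 119708260, and its average log2 CPM was 3.31, or 9.91 CPM. This level was above that of 71.7% of the 19652 rows with reads. Idi1 encodes the isomerase that balances the isoprenoid units, and lies on the same chromosome from 8885501 to 8892451. Its average log2 CPM was 6.10, or 68.6 CPM, above 88.6% of rows with reads.

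Sqle encodes squalene monooxygenase, which adds oxygen to squalene and is a control point of the route. On chromosome 15, from 59315077 to 59331192, it had an average log2 CPM of 3.56, or 11.8 CPM, above 73.4% of rows with reads. Lss encodes lanosterol synthase, which closes the product of SQLE into the sterol ring system. On chromosome 10, from 76531588 to 76557138, Lss had an average log2 CPM of -0.54, or 0.689 CPM, above 42.9% of rows with reads, and was the only one of the 7 genes under 1 CPM. Cyp51 encodes the cytochrome P450 that removes a methyl group from lanosterol, the step that follows. On chromosome 5, from 4081145 to 4104746, Cyp51 had an average log2 CPM of 8.30, or 315 CPM, above 97.9% of rows with reads. Enzymes of adjacent steps thus stood at opposite ends of the range of the 7 genes in the table, in CPM and per kb.

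Of the regulators, Srebf2 encodes the precursor of SREBP2. It lies on chromosome 15 from 82147181 to 82205379, and its average log2 CPM was 4.43, or 21.5 CPM, above 78.4% of rows with reads. Insig1 encodes the protein that retains the SCAP and SREBP complex, and is itself a target of SREBP2. On chromosome 5, from 28071363 to 28078662, Insig1 had an average log2 CPM of 7.57, or 190 CPM, above 96.0% of rows with reads. The median percentile of the 7 genes was 78.4.

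Exons of other annotated genes overlap those of 4 of the 7 genes in GENCODE, all from the other strand, namely Akap9 at Cyp51, Gm48342 at Hmgcs1, Gm48574 at Idi1 and 4930483K19Rik at Lss. The library kit keeps no strand, so reads from the overlapping parts cannot be told apart. Insig1, Sqle and Srebf2 had no such overlap.

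Levels of different genes can be compared only per length, so each CPM was divided by the length of the transcript with the longest coding sequence. Cyp51 was the highest of the 7 genes with 80.0 CPM per kb, followed by Insig1 with 70.6 CPM per kb. Idi1 had 22.7 CPM per kb, which is 3.11-fold lower than Insig1. Sqle with 4.28 CPM per kb and Srebf2 with 4.23 CPM per kb were nearly equal, and their order turned with the length chosen. Hmgcs1 had 2.86 CPM per kb and Lss 0.148 CPM per kb. Cyp51 exceeded Lss 542-fold per kb, and this ratio was 289-fold with the median length of all coding transcripts and 812-fold with the longest transcript. Without a spread over livers, which neighbours in this order differ could not be tested. Per kb, the percentile among the 14227 protein-coding genes with reads and a length ran from 26.2 for Lss to 94.8 for Cyp51. With the median length of all coding transcripts, Idi1, for which short partial transcripts are annotated, rose from 22.7 to 92.6 CPM per kb and passed Cyp51.

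**Figure D2:**
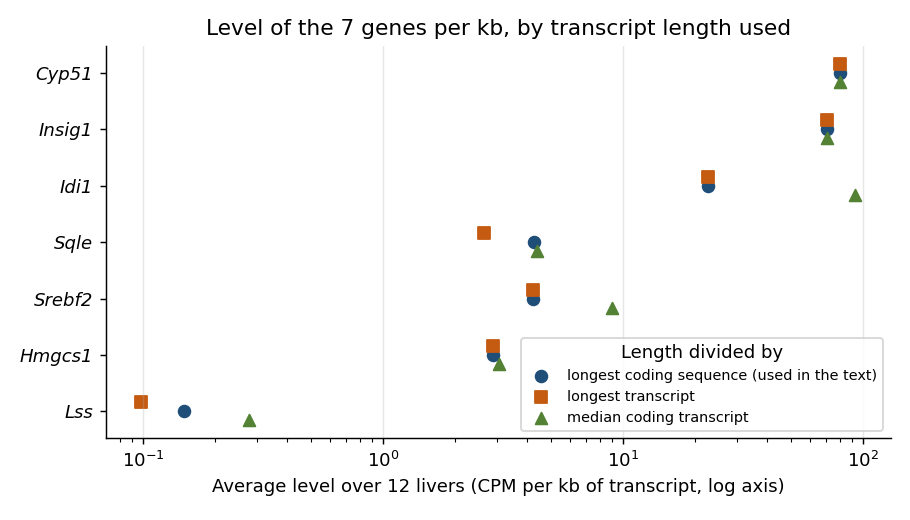
Average level over 12 livers in CPM per kb of transcript (log axis) for each of the 7 genes. Symbols stand for the transcript length used as divisor. Cyp51 and Insig1 keep one value under each length, Idi1 moves from 22.7 to 92.6 CPM per kb with the median coding transcript, and Lss lies under 1 CPM per kb throughout.

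The rest of the route was read from 16 further enzyme genes, all of them in the table, among them Ggps1 of a side branch. Of these, 11 were above 1 CPM and 7 above 16 CPM, with Ggps1 just over that threshold at 16.1 CPM. Of the 7 genes described above, 6 were above 1 CPM and 4 above 16 CPM. Over the whole table, 10171 of 30743 rows were above 1 CPM, and 22.8% of the 18363 matched protein-coding genes were above 16 CPM. Per kb, the median was 4.57 CPM per kb for the 16 enzyme genes and 4.28 CPM per kb for the 7 genes. Of the 6 genes between mevalonate and squalene other than Idi1, Mvk (mevalonate kinase) had 0.735 CPM, Pmvk (phosphomevalonate kinase) 15.6 CPM, Mvd (the decarboxylase) 0.463 CPM, Idi2 (the second isomerase) 0.190 CPM, Fdps (farnesyl diphosphate synthase) 6.98 CPM and Fdft1 (squalene synthase) 0.197 CPM. Per kb, these 6 genes ran from 0.0532 to 13.1 CPM per kb with a median of 0.361 CPM per kb, and the 8 genes after lanosterol other than Cyp51 from 0.0691 to 133 CPM per kb with a median of 64.9 CPM per kb. Of the former, 4 have 2 or more RefSeq mRNAs, and of the latter 1. Among genes with 1 RefSeq mRNA, the median was 0.174 CPM per kb for 2 of the former, Mvd and Idi2. It was 63.3 CPM per kb for 7 of the latter. Idi1 and Cyp51, left out of these medians, also have 1 RefSeq mRNA and had 22.7 and 80.0 CPM per kb. The 4 genes of the former with 2 or more had a median of 2.75 CPM per kb. The part of the mRNA number in these medians was not tested. Dhcr7, a reductase of the last steps, had 133 CPM per kb, 1.66-fold above Cyp51 per kb. Msmo1, listed as Sc4mol, had 110 CPM per kb, Lbr, a nuclear envelope protein with sterol reductase activity, 100.4 CPM per kb, Ebp 66.6 CPM per kb, Nsdhl 63.3 CPM per kb and Hsd17b7 45.3 CPM per kb. Sc5d, the desaturase near the end of the route, had 0.0691 CPM per kb, and Tm7sf2, a sterol reductase, had 0.925 CPM per kb.

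Over all 21 enzyme genes, those 16 and the 5 enzymes among the 7 genes, 9 were above 16 CPM. They were 7 of the 14 with 1 RefSeq mRNA and 2 of the 7 with 2 or more, namely Dhcr7 and, just over the threshold, Ggps1. Over the 41 pathway genes matched to RefSeq, 19 of the 26 with 1 mRNA were above 16 CPM, and 4 of the 15 with 2 or more. Their medians per kb were 23.3 and 1.19 CPM per kb. By RefSeq mRNA number, single genes went the other way. Dhcr7 with 7 RefSeq mRNAs and Rnf145 with 3 were above 16 CPM, and Lss, Mvd, Idi2 and Sc5d, with 1 each, were under 1 CPM.

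**Figure D3:**
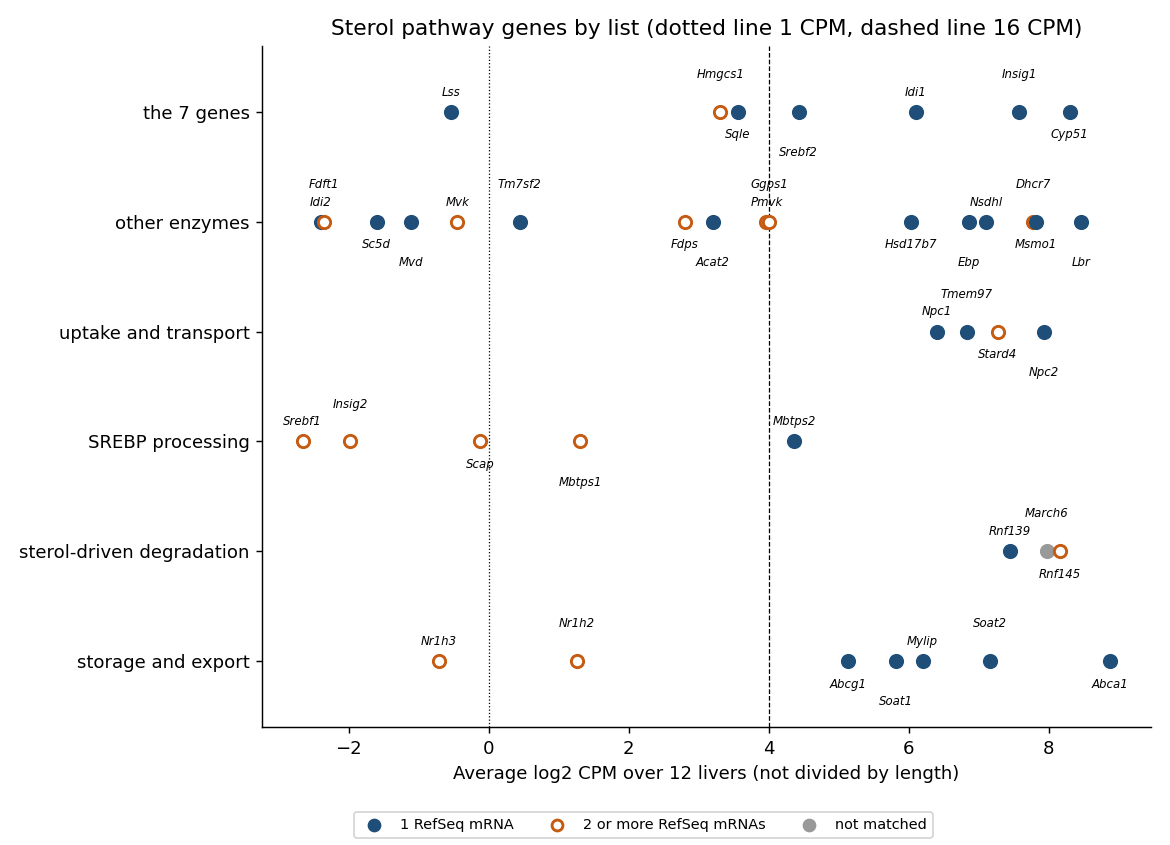
Average log2 CPM over 12 livers (horizontal axis, not divided by length) of the 42 pathway genes in 6 lists. Blue filled points have 1 RefSeq mRNA, open points 2 or more, and the grey point is March6, which had no RefSeq match. Of the 5 genes of SREBP processing only Mbtps2 lies above 16 CPM, and all 3 genes shown of sterol-driven degradation do.

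Of 5 partners of Srebf2 and Insig1 in SREBP processing, 3 were under 1 CPM and 1 was above 16 CPM. Scap, the sterol sensor that carries SREBP to the Golgi, had 0.923 CPM, Insig2, the second retention protein, 0.254 CPM, and Srebf1, the gene of the fatty acid regulator SREBP1, 0.159 CPM. These 3 genes have 2, 5 and 4 RefSeq mRNAs. The proteases that release SREBP were at 2.47 CPM for Mbtps1 and 20.6 CPM for Mbtps2, whose level per kb was 4.29 CPM per kb, beside 4.23 CPM per kb for Srebf2. Per kb, Insig1 stood at 70.6 CPM per kb and Insig2 at 0.0942 CPM per kb.

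The 4 genes of cholesterol uptake and transport described here were all above 16 CPM. Tmem97, an SREBP2 target, had 82.6 CPM per kb and Stard4, a sterol carrier, 30.3 CPM per kb. The lysosomal exporters had 74.1 CPM per kb for Npc2 and 16.2 CPM per kb for Npc1. The 3 ubiquitin ligase genes of sterol-driven degradation described here were also above 16 CPM, with 7.44 average log2 CPM for Rnf139, 7.97 for March6 and 8.15 for Rnf145. On the side of storage and export, 5 of 7 genes were above 16 CPM, among them Soat2, the sterol esterifying enzyme of hepatocytes and enterocytes, with 64.4 CPM per kb and Abca1, the exporter to apolipoprotein A-I, with 45.7 CPM per kb. The LXR genes Nr1h2 and Nr1h3, whose products sense oxysterols, had 1.19 and 0.312 CPM per kb.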

How the data were processed

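Liver RNA of 6 control and 6 HFD male fetuses was sequenced on an Illumina HiSeq after polyA selection. Alignment by the authors was to mm10 with Subread (1.3.6-p1), gene annotation came from biomaRt, and edgeR gave their comparison of HFD with control. The submitters' processing notes also name cutadapt (1.2.1). The counting tool is not given in the sources used here. The deposited table gives an average log2 CPM per gene over all 12 livers, printed here as the authors' value. Its log2 fold changes, p-values, adjusted p-values and signed fold changes for HFD against control, with a common and a tagwise dispersion, are 8 columns of the authors' own comparison and were not used. A planned count test of the diets needs a count for every liver and was not run. The depth of each liver is unknown here, so no interval is given. The average came with a common and a tagwise label, and both columns held equal values.

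CPM is 2 to the power of that average, which includes a prior count added by the authors' tool. Percentiles are the share of the 19652 rows with reads that are lower. Transcript lengths and positions came from GENCODE M21 (GRCm38, the build of mm10), and mRNA numbers (NM_ accessions) and promoters from RefSeq on GRCm38.p6. Older symbols were matched (Sc4mol for Msmo1, Emr1 for Adgre1). March6 had no RefSeq match by symbol. The 7 genes, the 6 pathway lists and the 6 marker lists were chosen with earlier results of these data known, and every gene of a pathway list could be named. Some genes of these lists are not reported here and enter no count over a list. The comparison by mRNA number was chosen after seeing the data. The split of the enzyme genes into those before squalene and those after lanosterol was not planned either. Percentile and motif functions were tested on simulated data. The scripts ran under Python 3.11.15, with matplotlib 3.10.9, numpy 2.4.6 and pandas 2.3.3.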

Additional observations from a re-analysis of the deposited data

How the results depend on the processing

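The median percentile of the 7 genes was 78.4 among rows with reads, 86.2 among all rows and 68.1 among rows above 1 CPM, where Lss has no value. With 2 backgrounds added after seeing the data, it was 72.6 for the 6 genes with 1 RefSeq mRNA among other such genes with reads, and 68.1 per kb. The other average column gave the same percentiles. The order per kb changed for 3 of the 7 genes with the longest transcript, for 5 with the median coding transcript and for 2 without division by length, and for 0 when the prior count was taken off. Lss was last under each of these lengths. Counting a motif only before the start changed no number of genes with a match. DESeq2, a fit without the filter on low counts and leaving out each replicate were not run, since they need a value for every liver. No paired analysis was possible because single livers have no value here and the labels number no pairs. With 1 average per gene, no level here can be set against the spread between livers.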
